A study of Mus musculus with 8 samples.

Results

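10 genes that mark adipocyte progenitors and fibroblasts were followed in epididymal white adipose tissue of Ccdc92 knockout (KO) and wild-type (WT) mice: Pdgfra, Pdgfrb, Dpp4, Pi16, Cd34, Ly6a, Dcn, Clec3b, Mfap5 and F3. They were chosen by name, through the GENCODE M21 symbols of the gene identifiers, and are 10 of the 24821 genes in the deposited table. All 10 passed the filter on low values. The 4 KO libraries came from male Ccdc92 KO mice, and the 4 WT libraries from male wild-type littermates of matched age. Both groups were on a C57BL/6 background and both had 14 weeks of a high-fat diet in which fat made up 60%, protein 20% and carbohydrate 20% of calories. There was no group on another diet. Neither the age in weeks nor the deleted stretch of Ccdc92 is given in the sources used here. No label states that the libraries of a group came from separate animals, so p-values measure the spread between libraries. Pairs of libraries within a group differed by more than read sampling alone. Their chi-square, divided by its degrees of freedom, ran from 26.96 (KO replicates 1 and 2) to 453.3 (KO replicates 2 and 3). Whether this spread came from the animals or from the handling of the tissue and libraries was not tested.

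White adipose tissue holds, beside lipid-filled adipocytes, a stromal compartment of fibroblast-like cells that make the matrix and supply new adipocytes. These cells carry the receptor tyrosine kinases PDGFRα and PDGFRβ. In mouse subcutaneous fat a Dpp4+ Pi16+ interstitial population has been described as giving rise to Icam1+ preadipocytes, while F3+ (CD142+) stromal cells restrained adipocyte formation by their neighbours. Several of the 10 genes are shared with other cells: Cd34 and Ly6a with endothelium, Pdgfrb with pericytes and smooth muscle, Dpp4 with T cells.

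The values are the authors' size-factor-normalized counts per gene, from libraries of 23681088 to 33817478 reads assigned to genes. Ccdc92 averaged 7.21 ± 2.58 normalized counts in KO libraries and 81.9 ± 24.7 in WT libraries (SD, n = 4 each), a log2 difference of -3.34 (SE 0.33, limma with Benjamini-Hochberg adjustment, adjusted p = 0.000383). The tissue label fitted its markers, since the 20 adipocyte markers summed to 1891800 to 2306210 normalized counts in KO libraries and to 636971 to 1020440 in WT libraries. Libraries also carried epididymal duct RNA in unequal amounts. The 13 duct markers summed to 7.28 to 2120 in KO libraries, with KO replicate 3 highest, and to 28061 to 93059 in WT libraries, most of the WT sums being Crisp1 (0 to 37.6 in KO libraries and 26575 to 71824 in WT libraries). Other duct markers went the other way: Gpx5 was at 868.5 in KO replicate 3 and at 0 in the other KO libraries, and at 0 to 1.87 in WT libraries, while Lcn8 was at 107.5 in KO replicate 3 and at 0 to 1.86 in WT libraries. Lcn9 and Lcn10, at 55.9 and 36.5 in KO replicate 3, were at 0 in every WT library. KO replicate 3 also had the highest sum of normalized counts over all genes, 36350260, beside 26696455 to 28831707 in the other libraries. Its chi-square over degrees of freedom against the other KO libraries was 293.7 to 453.3. Among those other KO libraries it was 26.96 to 98.8, and among WT libraries 49.6 to 151.1. WT replicate 4 stood apart in smooth muscle genes, with a sum of 76734 over 12 mural markers. The calls were therefore also made without WT replicate 4 and KO replicate 3 together. Duct sums stayed apart in that setting, at 7.28 to 297 in KO libraries and 42889 to 93059 in WT libraries. The duct sums, mostly Crisp1 in WT libraries, thus went with genotype in either setting. Over all 8 libraries not every single duct marker did. The part of duct RNA in the calls was not tested.

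Of the 10 genes, 2 were lower in KO tissue, none was higher and 8 did not pass the test at an adjusted p under 0.05. Among all genes, 41.7% of the 17798 tested genes passed, 21.5% lower and 20.2% higher in KO tissue; quantile normalization turned that near-even split to 58.5% higher among the called genes, against 48.4%. Pdgfrb and Pdgfra, the PDGF receptors, were the members that fell. The median log2 difference of the 10 genes was 0.11, beside -0.01 over all tested genes. By unadjusted p the count of the 10 under 0.05 was 2, and edgeR on the recovered reads called 1 and DESeq2 called 2. Only Pdgfrb, 1 of 10, separated the 4 KO from the 4 WT libraries without overlap, beside 42.1% of tested genes. The count of called members was 1 when KO replicate 1, 2 or 3 was left out, and likewise for WT replicate 1 or 3. Bulk tissue cannot tell fewer cells of a type from less RNA per cell.

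**Figure D1:**
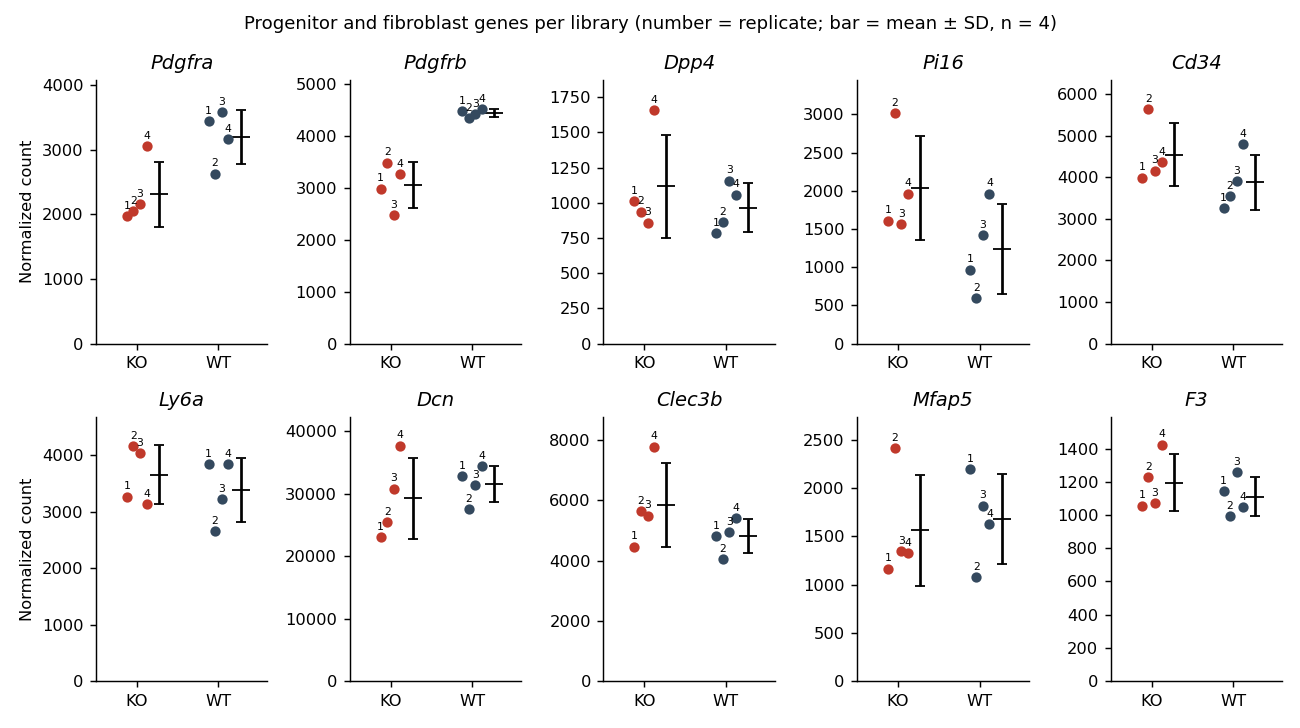
Normalized counts (linear axis from 0) of the 10 progenitor and fibroblast genes in each of the 4 KO and 4 WT libraries, 1 panel per gene, numbered by replicate, with the group mean ± SD (n = 4) beside the points. Pdgfrb is the panel in which no KO point reaches a WT point, with KO libraries at 2477 to 3481 and WT libraries at 4334 to 4512.

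**Figure D2:**
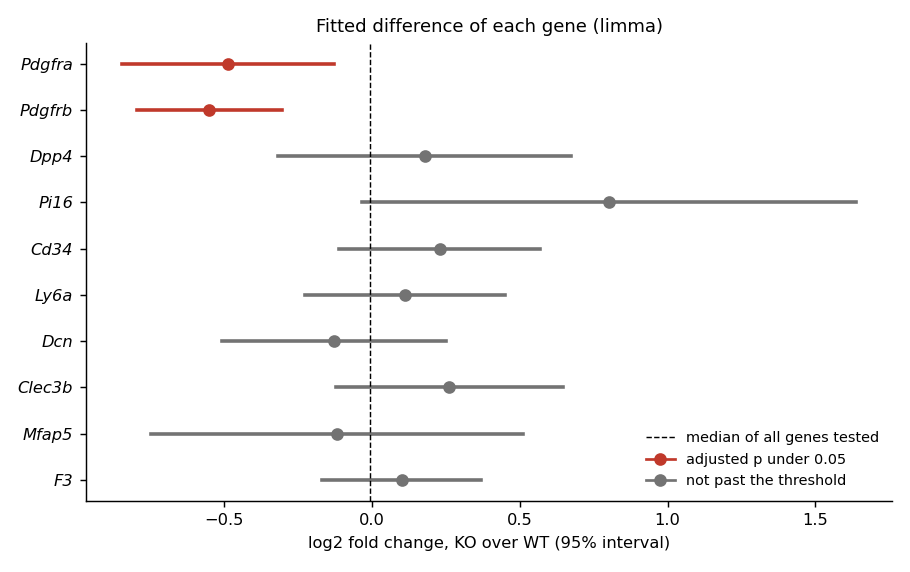
Fitted log2 difference, KO over WT, of each of the 10 genes with its 95% interval, from limma on log2(normalized count + 1). The intervals of Pdgfrb (-0.79 to -0.31) and Pdgfra (-0.84 to -0.13) lie below 0, and the other 8 cross it.

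Pdgfrb (ENSMUSG00000024620.11, chromosome 18, 61045150 to 61085061 on the plus strand of GRCm38) encodes the receptor that binds PDGF-B and PDGF-D dimers and marks perivascular progenitors and mural cells. Pdgfrb had 2981, 3481, 2477 and 3267 normalized counts in KO libraries and 4465, 4334, 4419 and 4512 in WT libraries. Every KO library lay below every WT library, and the WT libraries lay close together, with a coefficient of variation of 1.71% beside 14.2% in KO libraries. The means were 3051 ± 434 in KO tissue and 4432 ± 75.7 in WT tissue (SD, n = 4 each), a log2 difference of -0.55 (SE 0.11, 95% interval -0.79 to -0.31, limma adjusted p = 0.00443). Its p in the exact two-sided permutation test was 0.0286, and no lower value can be had from the 70 ways to split 8 libraries in equal groups. The call held in all 19 alternatives, with log2 differences of -0.62 to -0.44. The 12 mural markers summed to 39316 to 56031 in KO libraries and to 18004, 35264.5, 25095 and 76734 in WT replicates 1 to 4. Of these markers 4 were higher in KO tissue and none was lower, among them Mcam at 1.38 log2 (adjusted p = 0.00472). Among all tested genes 20.2% were higher and 21.5% lower. The count of higher mural markers was 2 in edgeR, with no filter on low values, and on dropping KO replicate 1, 2 or 3 or WT replicate 3. It was also 2 without KO replicate 3 and WT replicate 4 together. The count was 5 in DESeq2, with library weights, and without WT replicate 2 or WT replicate 4. The part of mural cells in the Pdgfrb difference was not tested.

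Pdgfra (ENSMUSG00000029231.15, chromosome 5, 75152292 to 75198215, plus strand) encodes the receptor used as the general marker of adipose fibroblasts and progenitors. Pdgfra had 1965, 2048, 2157 and 3049 normalized counts in KO libraries and 3434, 2626, 3574 and 3162 in WT libraries. KO replicate 4 lay within the WT values and the other KO libraries lay below all of them. The means were 2305 ± 502 in KO tissue and 3199 ± 418 in WT tissue (SD, n = 4 each), a log2 difference of -0.49 (SE 0.16, 95% interval -0.84 to -0.13, limma adjusted p = 0.036). The exact permutation p was 0.0571. This call ended, with the same sign, when any of these KO libraries was dropped: replicate 1 (adjusted p = 0.0914), replicate 2 (0.0837) or replicate 3 (0.0844). It also ended when any of these WT libraries was dropped: replicate 1 (0.0833), replicate 3 (0.0949) or replicate 4 (0.0646). With KO replicate 3 and WT replicate 4 both dropped the adjusted p was 0.13, and in edgeR it was 0.0504. Exons of Pdgfra share 6.5% of their bases with 3 other annotated genes, and whether the counting used strand is not given in the sources used here.

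The ratio of the receptors did not separate the groups. On a log2 scale Pdgfrb over Pdgfra was 0.60, 0.76, 0.20 and 0.10 in KO libraries and 0.38, 0.72, 0.31 and 0.51 in WT libraries, so KO replicates 3 and 4 had the lowest values and KO replicate 2 the highest. The promoter of Pdgfra is shown because it belongs to a called receptor and can be set beside the other promoters below. The window, from RefSeq on GRCm38.p6, runs from 250 bases before to 50 after the start annotated there (chr5:75152001-75152300, plus strand). It was searched on both strands for TATAAA (held by 13.6% of 32851 windows of the same length), CCAAT (37.4%), GGGCGG (35.7%), the AP-1 motif TGANTCA (7.81%) and the TEAD motif GGAATG (14.7%). None of the 5 motifs was in it, so it has no capitals. Its GC content was 51.0%, beside a median of 52.7%.
Pdgfra promoter: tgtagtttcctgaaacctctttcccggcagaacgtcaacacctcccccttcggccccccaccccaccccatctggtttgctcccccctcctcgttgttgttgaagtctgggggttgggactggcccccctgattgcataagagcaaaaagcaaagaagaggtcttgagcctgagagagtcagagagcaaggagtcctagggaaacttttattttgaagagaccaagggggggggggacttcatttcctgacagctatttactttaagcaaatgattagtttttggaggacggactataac

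The ligands of these receptors are growth factors from endothelium, macrophages and stroma. None of the 4 ligand genes passed the test, and 0 had an unadjusted p under 0.05; edgeR and DESeq2 called 0 and 0. Pdgfd, which binds PDGFRβ, averaged 510 ± 99.7 normalized counts in KO tissue and 385 ± 90.3 in WT tissue (SD, n = 4 each, log2 difference 0.41, limma adjusted p = 0.123). The log2 differences of the other ligands were -0.13 for Pdgfa, 0.11 for Pdgfb and 0.17 for Pdgfc.

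Dpp4 (ENSMUSG00000035000.8, chromosome 2, 62330073 to 62412231, minus strand) encodes a membrane-bound peptidase that trims peptides after proline or alanine. Dpp4 had 1012, 937, 859.9 and 1659 normalized counts in KO libraries and 782, 860.7, 1159 and 1059 in WT libraries. KO replicate 4 was highest of all and the groups overlapped. The means were 1117 ± 367 in KO tissue and 965 ± 174 in WT tissue (SD, n = 4 each), with a log2 difference of 0.18 (SE 0.22, 95% interval -0.32 to 0.67, limma adjusted p = 0.537). The sign turned without KO replicate 4 (-0.03) and with library weights (-0.07). T cells also express Dpp4: the 16 T cell markers summed to 1105 to 2265 in KO libraries and 3413 to 6071 in WT libraries, with 11 lower (6 or 7 on dropping WT replicate 1, 3 or 4 or KO replicate 1, 2 or 4) and none higher in KO tissue. Among all tested genes 21.5% were lower. The part of T cells in the Dpp4 level was not tested.

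Pi16 (ENSMUSG00000024011.17, chromosome 17, 29317680 to 29330593, plus strand) encodes peptidase inhibitor 16, a cell-surface protein of fibroblasts. Pi16 had 1608, 3017, 1563 and 1963.4 normalized counts in KO libraries and 967, 597, 1421 and 1962.5 in WT libraries. WT replicate 4 reached the KO values, while the other WT libraries lay below all KO libraries. The means were 2038 ± 677 in KO tissue and 1237 ± 590 in WT tissue (SD, n = 4 each). The log2 difference, 0.80, was the largest in size of the 10 and also the least precise (SE 0.37, 95% interval -0.03 to 1.64, limma adjusted p = 0.11). It passed the threshold without WT replicate 4 (log2 1.07, adjusted p = 0.0356) and without WT replicate 4 and KO replicate 3 together (1.18, adjusted p = 0.0479). The Pi16 promoter window, shown for the member with the largest fitted difference, held 1 of the 5 motifs, a CCAAT in capitals. The match lay 64 bases before the start annotated by RefSeq (GRCm38.p6, chr17:29318632-29318931, plus strand, GC 53.3%). The whole window lies inside the gene span given above, which begins at 29317680, so the RefSeq start differs from the GENCODE start.
Pi16 promoter: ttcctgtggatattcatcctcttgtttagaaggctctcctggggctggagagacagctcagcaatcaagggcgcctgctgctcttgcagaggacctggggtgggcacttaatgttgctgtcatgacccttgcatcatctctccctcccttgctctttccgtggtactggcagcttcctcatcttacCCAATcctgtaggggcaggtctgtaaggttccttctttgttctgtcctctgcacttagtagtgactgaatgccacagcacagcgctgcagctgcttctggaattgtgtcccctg

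Other genes reported for the Dpp4+ interstitial cells, 18 in all, were higher in KO tissue for 8, lower for none, and did not pass for 10, beside 20.2% higher among all tested genes. Their median log2 difference was 0.55, beside -0.01 over all tested genes. Ackr3, an atypical receptor for the chemokine CXCL12, averaged 1781 ± 305 normalized counts in KO tissue and 781 ± 158 in WT tissue (SD, n = 4 each, log2 1.19, limma adjusted p = 0.00113). Efhd1, a mitochondrial calcium-binding protein, rose by 1.18 (adjusted p = 0.000565), and Pcsk6, a proprotein convertase, by 1.77 (adjusted p = 0.0012) on the log2 scale. Sema3e, a semaphorin that signals through plexin D1, rose by 2.35 (adjusted p = 0.00403), at 114 ± 27.8 normalized counts in KO tissue and 25.7 ± 21.6 in WT tissue (SD, n = 4 each). The count was 8 in edgeR and in DESeq2, and 8 or 9 when any 1 library was left out, with 1 gene lower without KO replicate 2. Cd55, a complement regulator used to sort these cells and named here after its values were seen, rose by 0.81 (adjusted p = 0.0133). Beside these counts, adipocyte markers were higher in KO tissue for 16 of 20 genes (median log2 1.53) and endothelial markers for 8 of 12 (sums of 56163 to 63687 in KO libraries and 23882 to 44895 in WT libraries), or 5 of 12 without WT replicate 3. The part of those cells in the progenitor list was not tested.

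Genes reported for the Icam1+ preadipocytes were higher in KO tissue for 4 of 16 and lower for 3, with a median of 0.15. These shares lie near those of all tested genes, 20.2% higher and 21.5% lower. Pparg, the adipocyte master transcription factor, rose by 1.00 (adjusted p = 0.00109). Cxcl14, a chemokine, averaged 194 ± 65.3 normalized counts in KO tissue and 1100 ± 365 in WT tissue (SD, n = 4 each, log2 -2.51, limma adjusted p = 0.00101). Icam1, named after its values were seen, fell by 0.56 (adjusted p = 0.0211), a call that ended on dropping KO replicate 3 (0.0585), WT replicate 3 (0.0508), or KO replicate 3 with WT replicate 4 (0.0637). Fabp4 and Lpl, which mature adipocytes make in bulk, rose by 1.38 and 0.70. Under quantile normalization the Fabp4 call ended (0.68, adjusted p = 0.099) and Lpl turned to -0.25 (adjusted p = 0.482), and the count of higher genes was 2.

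The transcription factors and signals of adipogenic commitment were higher for 9 of 21 genes and lower for 2 (median 0.54), and for 7 and 2 without KO replicate 3 and WT replicate 4, beside 20.2% higher among all tested genes. Ebf1 rose by 1.08 (adjusted p = 0.000698), Cebpa by 1.16 (adjusted p = 0.00107) and Klf15 by 1.71 (adjusted p = 0.00114), all regulators that mature adipocytes also express. Prrx1, a homeobox factor of mesenchymal cells, fell by 1.12 on the log2 scale (adjusted p = 0.000937).

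**Figure D3:**
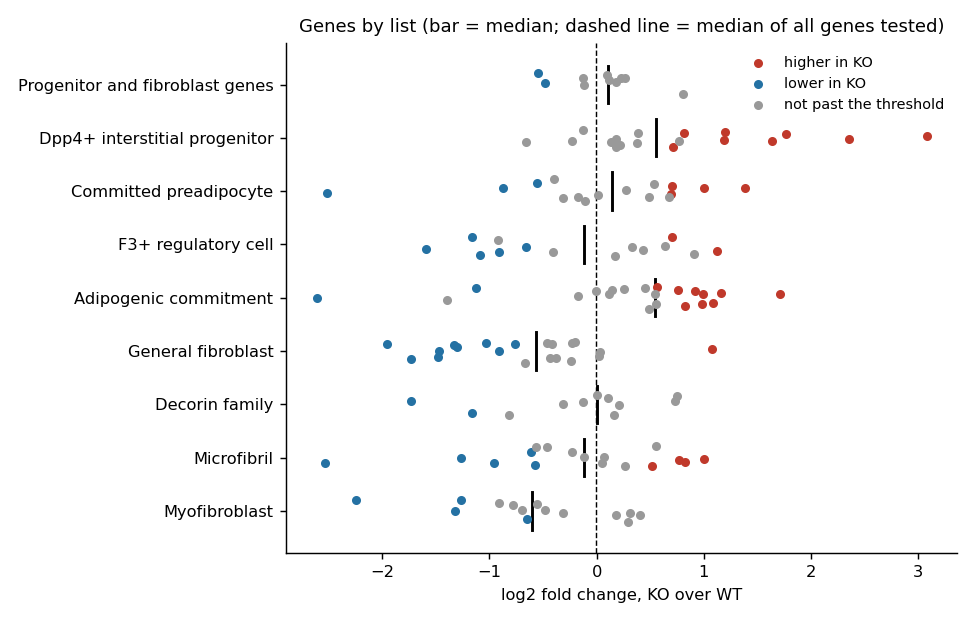
Log2 differences, KO over WT, of every tested gene in the related lists, 1 point per gene, coloured by call, with the list median as a bar and the median of all tested genes as a dashed line. Interstitial progenitor genes have a median of 0.55 and general fibroblast genes a median of -0.56.

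Cd34 (ENSMUSG00000016494.9, chromosome 1, 194938819 to 194961279, plus strand) encodes a sialomucin of progenitor, endothelial and mast cells. Cd34 had 3987, 5643, 4157 and 4357 normalized counts in KO libraries and 3255, 3548, 3912 and 4785 in WT libraries. KO replicate 2 was highest, and WT replicate 4 lay above the other KO libraries. The means were 4536 ± 753 in KO tissue and 3875 ± 664 in WT tissue (SD, n = 4 each), a log2 difference of 0.23 (SE 0.15, 95% interval -0.11 to 0.57, limma adjusted p = 0.247). The endothelial markers given above were higher in KO libraries, while all 8 mast cell markers were lower (7 without KO replicate 3 and WT replicate 4), with sums of 958 to 1305 in KO libraries and 4007 to 11565 in WT libraries. Among all tested genes 21.5% were lower. How far endothelial or mast cells moved the Cd34 level was not tested.

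Ly6a (ENSMUSG00000075602.10, chromosome 15, 74994877 to 74998031, minus strand) encodes Sca-1, the lipid-anchored antigen by which mouse progenitors are sorted. Ly6a had 3272, 4169, 4039 and 3139 normalized counts in KO libraries and 3842, 2661, 3220.3 and 3843 in WT libraries. The groups overlapped, with WT replicate 2 lowest. The means were 3655 ± 525 in KO tissue and 3391 ± 568 in WT tissue (SD, n = 4 each), a log2 difference of 0.11 (SE 0.15, 95% interval -0.23 to 0.45, limma adjusted p = 0.568). Of the stretches of 50 bases in its transcripts, 19.0% also occur in other genes, among them Ly6c1 and Ly6i, so reads could be split between paralogs and the Ly6a level is uncertain to that extent.

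Among the 9 tested genes of the Ly6 family list, 3 were higher and 1 was lower in KO tissue. The shares of all tested genes were 20.2% higher and 21.5% lower. The Ly6 count of higher genes was 1 without WT replicate 1, WT replicate 3 or KO replicate 2. That of lower genes was 3 without KO replicate 3, alone or together with WT replicate 4. The 9 include Ly6a. Gpihbp1, which carries lipoprotein lipase across capillary endothelium, rose by 1.43 (adjusted p = 0.00517). Ly6c1, an endothelial and myeloid antigen, rose by 0.44 (adjusted p = 0.0295), a call that did not survive dropping KO replicate 2 (0.0681), KO replicate 3 (0.0723), WT replicate 1 (0.0555) or WT replicate 3 (0.0804). Ly6h passed at 0.67 (adjusted p = 0.0431). Ly6f had no read in any KO library and 249 to 2393 normalized counts in WT libraries. Ly6c2 (log2 -0.40, adjusted p = 0.28), Ly6e (-0.14, 0.508), Ly6i (-1.45, 0.08) and Ly6d (-2.23, 0.115) did not pass. Ly6k and Ly6g6c lay under the filter on low values, at 0 to 3.64 and 0 to 7.52 normalized counts in KO libraries and 1.83 to 8.43 and 1.86 to 3.75 in WT libraries.

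Dcn (ENSMUSG00000019929.16, chromosome 10, 97479609 to 97518143, plus strand) encodes decorin, a small leucine-rich proteoglycan that binds collagen fibrils. Dcn had 23078, 25507, 30843 and 37709 normalized counts in KO libraries and 32776, 27562, 31415.5 and 34407 in WT libraries. KO replicate 1 was lowest and KO replicate 4 highest, and the WT libraries lay between KO replicates 2 and 4. The means were 29284 ± 6486 in KO tissue and 31540 ± 2921 in WT tissue (SD, n = 4 each), a log2 difference of -0.13 (SE 0.17, 95% interval -0.51 to 0.25, limma adjusted p = 0.563).

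Clec3b (ENSMUSG00000025784.5, chromosome 9, 123150946 to 123157432, plus strand) encodes tetranectin, a secreted plasminogen-binding lectin. Clec3b had 4462, 5638, 5496 and 7782 normalized counts in KO libraries and 4816, 4042, 4946 and 5405 in WT libraries. KO replicate 1 lay within the WT values and the other KO libraries above them. The means were 5845 ± 1394 in KO tissue and 4802 ± 566 in WT tissue (SD, n = 4 each), a log2 difference of 0.26 (SE 0.17, 95% interval -0.12 to 0.65, limma adjusted p = 0.24).

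Mfap5 (ENSMUSG00000030116.14, chromosome 6, 122505845 to 122529290, plus strand) encodes MAGP-2, a protein of fibrillin microfibrils. Mfap5 had 1165, 2418, 1344 and 1323 normalized counts in KO libraries and 2197, 1073, 1819 and 1627 in WT libraries. KO replicate 2 stood far above the other KO libraries, and the WT libraries spanned nearly the same range. The means were 1562 ± 576 in KO tissue and 1679 ± 468 in WT tissue (SD, n = 4 each), a log2 difference of -0.12 (SE 0.28, 95% interval -0.75 to 0.51, limma adjusted p = 0.751). KO replicate 2 was also highest in its group for Fbn1 (27481 normalized counts, the other KO libraries 5903 to 8397), the fibrillin that Mfap5 binds, and for Eln (11439.8, the other KO libraries 5367 to 6226), which encodes elastin.

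Of 17 genes of microfibrils and elastic fibres, Mfap5 included, 4 were higher and 5 were lower in KO tissue, beside 20.2% and 21.5% of all tested genes. Eln rose by 1.00 (adjusted p = 0.017), Ltbp4, which fibulin-5 needs for elastic fibre assembly, by 0.77 (adjusted p = 0.0102) and Fbln5, fibulin-5 itself, by 0.52 (adjusted p = 0.016). Mfap2, the paralog of Mfap5, averaged 146 ± 31.8 normalized counts in KO tissue and 348 ± 22.4 in WT tissue (SD, n = 4 each, log2 -1.27, limma adjusted p = 0.000817). The count of lower genes was 3 without WT replicate 1, KO replicate 1 or KO replicate 4, 2 without WT replicate 3 or WT replicate 4, 1 without KO replicate 3 and 1 without WT replicate 4 and KO replicate 3 together.

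Of 20 other genes common to fibroblasts, 9 were lower and 1 was higher in KO tissue, with a median of -0.56 beside -0.01 over all tested genes, of which 21.5% were lower. Mmp2, a gelatinase, averaged 2003 ± 477 normalized counts in KO tissue and 7657 ± 1046 in WT tissue (SD, n = 4 each, log2 -1.96, limma adjusted p = 0.000352). Lum, which encodes the decorin relative lumican, averaged 2012 ± 978 in KO tissue and 6280.0 ± 1332 in WT tissue (log2 -1.73, adjusted p = 0.00302). Col1a1, a chain of type I collagen, fell by 1.48 (adjusted p = 0.00552) and Pcolce, the enhancer of procollagen cleavage, by 1.30 (adjusted p = 0.00258) on the log2 scale. Gsn, an actin-severing protein that is abundant in adipocytes, rose by 1.08 (adjusted p = 0.0047), a call that ended under quantile normalization (0.19, adjusted p = 0.624). Without WT replicate 4 and KO replicate 3 the count of lower genes was 5. In decorin's own proteoglycan family, Dcn included, 2 of 11 tested genes were lower, Lum and Bgn (log2 -1.16, adjusted p = 0.0118), and none was higher, or 1 without KO replicate 4 and 2 in DESeq2. Myofibroblast genes were lower for 4 of 14, near the background share, and higher for none, led by Timp1, an inhibitor of matrix metalloproteinases (log2 -2.24, adjusted p = 0.00626). The myofibroblast count was 2 without WT replicate 3, KO replicate 3 or KO replicate 4, 7 without KO replicate 2, and 1 without WT replicate 4 and KO replicate 3 together. Macrophage markers, lower for 19 of 20 genes, summed to 60550 to 96139 in KO libraries and 231001 to 551899 in WT libraries, and their part in these counts was not tested.

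Each gene was also set against Dcn in the same library. Relative to Dcn, Pdgfra lay at -3.84 to -3.55 log2 in KO libraries and -3.44 to -3.14 in WT libraries, so the groups no longer overlapped. Clec3b moved the other way, at -2.49 to -2.18 in KO libraries and -2.77 to -2.67 in WT libraries. The other 7 members overlapped between groups, including Pdgfrb at -3.64 to -2.87 in KO libraries and -2.93 to -2.67 in WT libraries. Such separation was found for 24.8% of 17479 genes set against Dcn, and for 2 of these 9 members. Of the 20 general fibroblast genes, 4 were lower in KO libraries without overlap (Col1a1, Lum, Mmp2 and Pcolce), beside 9.95% of all genes, and Gsn was higher. These ratios carry the spread of Dcn itself, with an SD of 6486 normalized counts in KO libraries and 2921 in WT libraries.

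**Figure D4:**
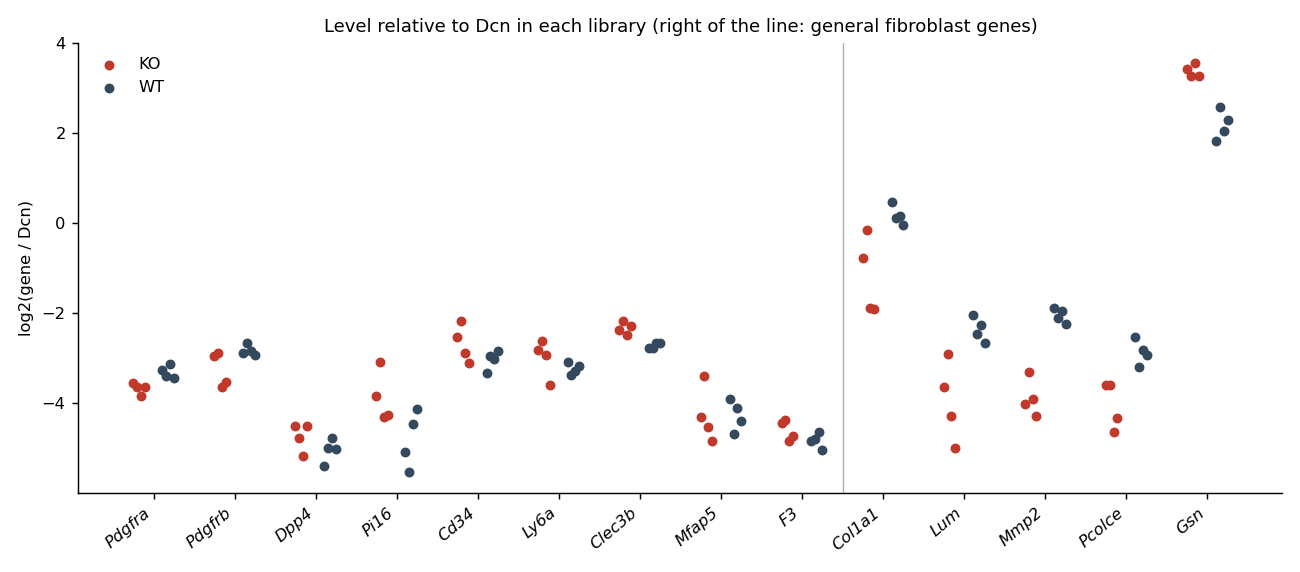
Log2 ratio of each of 9 members to Dcn in every library, KO points left of WT points, and right of the vertical line the same for the 5 general fibroblast genes whose groups did not overlap. Pdgfra lies lower in all KO libraries (-3.84 to -3.55) than in WT libraries (-3.44 to -3.14), and Clec3b higher.

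F3 (ENSMUSG00000028128.13, chromosome 3, 121723537 to 121735048, plus strand) encodes tissue factor (CD142), the cell-surface cofactor that starts clotting with factor VIIa. F3 had 1057, 1229.7, 1072 and 1425 normalized counts in KO libraries and 1145, 992, 1258 and 1049.6 in WT libraries. The libraries of the groups were interleaved, with KO replicate 4 highest. The means were 1196 ± 172 in KO tissue and 1111 ± 116 in WT tissue (SD, n = 4 each), a log2 difference of 0.10 (SE 0.12, 95% interval -0.17 to 0.37, limma adjusted p = 0.519). The F3 window (RefSeq, GRCm38.p6, chr3:121723287-121723586, plus strand) is shown because it held 6 of the motif matches, in capitals. These were TGANTCA 146 and 135 bases before the start, GGGCGG 89 and 24 bases before it on the plus strand and 58 before it on the minus strand, and TATAAA on the minus strand 43 bases after it. Its GC content was 70.3%. A match describes the letters and is no site of binding.
F3 promoter: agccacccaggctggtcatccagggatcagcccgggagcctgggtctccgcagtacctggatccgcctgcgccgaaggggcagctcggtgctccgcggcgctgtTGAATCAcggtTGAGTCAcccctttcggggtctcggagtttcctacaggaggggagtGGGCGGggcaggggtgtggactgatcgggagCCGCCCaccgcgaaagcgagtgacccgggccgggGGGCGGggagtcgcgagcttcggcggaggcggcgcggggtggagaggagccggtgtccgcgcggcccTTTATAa

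Of 15 tested genes of the clotting and plasminogen pathway, F3 included, 2 were higher and 5 were lower in KO tissue, beside 20.2% and 21.5% of all tested genes. F7, the protease that F3 binds, averaged 203 ± 194 normalized counts in KO tissue and 1305 ± 534 in WT tissue (SD, n = 4 each, limma adjusted p = 0.00448). Plau, the urokinase plasminogen activator, fell by 1.66 (adjusted p = 0.000286) on the log2 scale. Thbd, the endothelial thrombin receptor thrombomodulin, rose by 1.48 (adjusted p = 0.000879). Macrophages express Plau and can express F7, and their markers were lower as given above. Without WT replicate 4 and KO replicate 3 the count of lower genes was 3. The other genes reported for F3+ regulatory cells were lower for 5 of 14 and higher for 2, with a median of -0.12, beside 21.5% lower and 20.2% higher among all tested genes. Mgp, a matrix calcification inhibitor, fell by 1.59 (adjusted p = 0.00547), Abcg1, a cholesterol exporter, by 1.09 (adjusted p = 0.00335) and Cygb, cytoglobin, by 0.66 (adjusted p = 0.00403), while Hsd11b1, which regenerates active glucocorticoid, rose by 1.12 (adjusted p = 0.00181). The count of higher genes was 4 without WT replicate 4 and 5 with library weights. Of the 6 tested genes of the dipeptidyl peptidase family, Dpp4 included, 2 were lower, Dpp6 (log2 -6.81, adjusted p = 0.00235) and Dpp9 (-0.33, adjusted p = 0.0468). That count was 1 on dropping KO replicate 1, 3 or 4 or WT replicate 1, 3 or 4. It was 1, without Dpp9, on dropping KO replicate 3 and WT replicate 4 together. The count was 3 without KO replicate 2, without WT replicate 2, with library weights and in DESeq2. Dpp6 was at 0 to 28.7 normalized counts in KO libraries and 205 to 1426 in WT libraries, highest in WT replicate 4. The part of duct or smooth muscle RNA in the Dpp6 difference was not tested.

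Per kilobase of exon, Clec3b and Dcn had the highest levels of the 10 genes, 5892 and 5016 normalized counts per kilobase in KO tissue and 4841 and 5403 in WT tissue, followed by Ly6a at 3033 in KO tissue and 2814 in WT tissue. In KO tissue the order went on as Cd34 (622), Pdgfrb (557), F3 (473), Mfap5 (435), Pi16 (320), Pdgfra (230) and Dpp4 (177). The WT order was Pdgfrb (809), Cd34 (532), Mfap5 (468), F3 (440), Pdgfra (319), Pi16 (194) and Dpp4 (153). In KO libraries only Dcn and Ly6a, and Ly6a and Cd34, were neighbours whose ranges did not overlap. In WT libraries this held for Clec3b and Ly6a, Ly6a and Pdgfrb, Pdgfrb and Cd34, and F3 and Pdgfra.

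The library with the highest value differed from gene to gene. KO replicate 2 was highest of all 8 libraries for Pi16, Cd34, Ly6a and Mfap5, and KO replicate 4 for Dpp4, Dcn, Clec3b and F3. WT replicate 2 was lowest of all 8 for 5 of the 10. In these libraries other markers stood out too: the microfibril genes summed to 110188 in KO replicate 2 (67640 to 85916 in the other KO libraries), and the mesothelial markers to 17642 in KO replicate 4 (2990 to 7233 in the other KO libraries, 5139 to 11758 in WT libraries). Of the 10 mesothelial markers (median log2 difference 0.46) 2 were lower in KO tissue, Krt8 and Krt18, beside 21.5% of all tested genes. None was higher, or 3 with a replicate block, beside 20.2% of all tested genes. In WT replicates 1 to 4 Krt18 was at 1009, 1835, 1672 and 896, and Krt8 at 1137, 2173, 2199 and 1536. The duct marker Crisp1 was at 34594, 71824, 63747 and 26575 in the same libraries. The part of duct RNA in the Krt8 and Krt18 calls was not tested. All 20 cell cycle genes were lower in KO tissue (median -1.96), beside 21.5% of all tested genes. The count was 19 without KO replicate 3 and WT replicate 4.

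**Figure D5:**
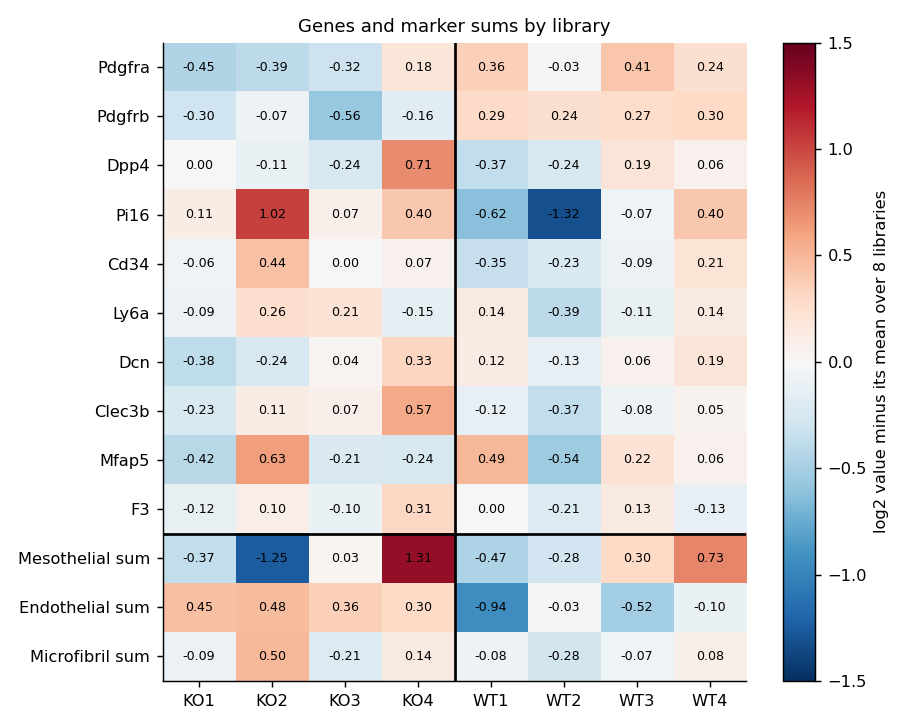
Log2 normalized count of each of the 10 genes in each library, minus the gene's mean over the 8 libraries, and the same for 3 marker sums in the bottom cells, with KO libraries left of WT libraries. KO replicate 2 is high for Pi16, Cd34, Ly6a and Mfap5, and WT replicate 2 is low for 5 of the 10 genes.

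Across the 8 libraries, the gene whose profile lay nearest to a member was found among 14305 genes with a mean of at least 50 by the root mean square difference of log2 values, each centred on its own mean. For Pdgfrb these were Smg9 (0.05), Akap13 and Marcks, and for Pdgfra Mnt (0.08), Nemp2 and Colec12. Nearest to Mfap5 were the matrix genes Fn1 (0.14), Col14a1 and Vcan. Nearest to Pi16 were Fndc1 (0.28), Sema3d and Cadm3, to Dpp4 Gm49338 (0.14), Sema6c and Zfr2, and to Cd34 Islr (0.09), Dpysl3 and Rbms3. Ly6a lay nearest to Ifitm3 (0.08), Dhrs13 and Ifitm2, and Clec3b to Hmgb1-ps6 (0.09), Gas6 and Lamb1. Dcn lay nearest to Hist2h2be (0.08), Zkscan17 and Fam189b. F3 lay nearest to Zdhhc8 (0.07), Rab33b and Hmgxb4.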

How the data were processed

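RNA sequencing of epididymal white adipose tissue from 4 KO and 4 WT libraries was analysed. The submitters' processing notes name STAR 2.7.7, DESeq2 and GRCm38.p6. The sources used here give neither the counting tool nor its strand setting or annotation. The deposited values are read counts per gene that the authors divided by a size factor per library, a normalized signal and not raw counts. Whole reads were recovered from them: 100.0% of values came out whole within 0.01 of a read. Identifiers were matched to GENCODE M21, 24558 of 24821 with the version suffix. The rest were tried without the suffix, which brought the matched total to 24802.

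Genes with at least 10 normalized counts in at least 4 of the 8 libraries were kept (17798). They were tested as log2(value + 1) with limma 3.58.1 in R 4.3.3 with trended, robust variance estimates, without a replicate term, adjusted by Benjamini-Hochberg over all 17798 genes and called under 0.05. Fold changes are on this log2 scale, which understates changes of low genes. The pseudocount, the filter, the normalization, library weights, a replicate term and left-out libraries were varied, and edgeR 4.0.16 and DESeq2 1.42.0 were run on the recovered reads. edgeR called 7435 genes, DESeq2 8336 and limma 7423. The limma step was run on simulated counts with the same dispersion for every gene and few changed genes. These libraries differ from that setting, so the run does not show how reliable the calls are here. Depth was 23681088 to 33817478 reads per library.

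The members and all lists were chosen with earlier results of these data known. The lists hold PDGF ligands, interstitial progenitor, preadipocyte, F3+ cell, general fibroblast, small proteoglycan, microfibril, Ly6, tissue factor pathway, Dpp4 family, adipogenic commitment and myofibroblast genes, and markers of other cells. Genes named are the members, Ccdc92, up to 4 genes with the smallest p per list, all measured PDGF ligands and Ly6 genes, and the 3 genes with the nearest profile to each member. Col1a1, Fbn1, Cd55, Icam1, Lcn8, Lcn9, Lcn10 and Gpx5 were named after their values were seen. Promoters came from a RefSeq table on GRCm38.p6, which has entries for 5 of the 10 members, Cd34, Dpp4, F3, Pdgfra and Pi16.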

Additional observations from a re-analysis of the deposited data

Results flagged for a closer look

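Dixon's criterion was applied to 150 groups (75 of the genes named here, not all of them, in KO and WT libraries). In 10 of these groups a library lay far from the other 3, and chance gives about 1 in 20. Gpx5, at 868.5 in KO replicate 3 and 0 in the other KO libraries, is not among these 10. In KO replicate 2, 3 microfibril and elastic fibre genes were high: Mfap5 at 2417.5 normalized counts, the other KO libraries 1165 to 1344, Fbn1 at 27481 (others 5903 to 8397) and Eln at 11439.8 (others 5367 to 6226).

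The other values lie outside the 10 genes. In KO replicate 3, Crisp1 had 37.6 (others 0 to 5.75), Ly6d 194.6 (others 10.2 to 32.2) and Ly6i 11.8 normalized counts (others 2.3 to 2.56). Dpp6 had 28.7 in KO replicate 1 (others 0 to 3.42) and 1426 in WT replicate 4 (others 205 to 299). Sema3e had 58.0 in WT replicate 4 (others 13.8 to 15.8). Efhd1 was low in WT replicate 2, at 115.4 (others 130.2 to 132.8).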

How the results depend on the processing

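Over the 19 alternatives to the 10 members' values, 175 of 190 kept direction and side of the threshold, 8 lost the call (all Pdgfra), 2 gained it (both Pi16) and 5 uncalled values changed sign: Dpp4 with library weights (-0.07) and without KO replicate 4 (-0.03), F3 with library weights (-0.08), and Mfap5 without WT replicate 1 (0.03) or KO replicate 1 (0.00). The number of called members was 1 in edgeR and 1 to 2 when single libraries were left out. It was 2 without WT replicate 4, and without that library and KO replicate 3 together, with Pi16 in place of Pdgfra. The number of called genes ranged from 5641 without WT replicate 3 to 9767 with library weights. Quantile normalization moved the median of all genes by 0.104 and turned the log2 difference of Lpl, a preadipocyte and adipocyte gene, to -0.25, against 0.70 without it; the cause was not tested. Of the 30 nearest profiles, 19 were shared when a mean of at least 500 was required. With a replicate block 6266 genes and 2 members were called (Pdgfra adjusted p = 0.0486). The replicate numbers did not pair the libraries: same-numbered deviations correlated at -0.14 to 0.17, 1 of 4 pairs over 0.1, and 1 of 4 KO libraries correlated best with its own number. The lowest member value in any library was 597 normalized counts.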
